A study of Mus musculus with 4 samples.

Results

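The 10 Polycomb repressive complex genes described here are Ezh1, Ezh2, Eed, Suz12, Jarid2, Mtf2, Phf19, Bmi1, Cbx7 and Rnf2. They were taken by name, and each matched 1 of the 50600 gene rows of the deposited tables. The cells were mouse primary cells of strain C57BL/6NJ labelled T-helper 17 (Th17), a CD4 T cell lineage that makes interleukin 17. RNA was sequenced in 4 libraries, all of 1 group, numbered by the labels as biological replicates 1 to 4. No control group, treatment, genotype or age is given, and the labels give the sex as not collected. The labels call the molecule total RNA, while the library protocol they link is titled for poly(A)+ RNA. They also link a protocol for differentiating CD4 T cells, and the file headers tag each alignment with hour 0.

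Polycomb proteins keep developmental and lineage genes silent through marks on histone tails. Polycomb repressive complex 2 (PRC2) methylates lysine 27 of histone H3, and Polycomb repressive complex 1 (PRC1) attaches ubiquitin to histone H2A and compacts chromatin. In CD4 T cells, loss of Ezh2 is known to raise the output of helper cytokines and to impair the survival of activated cells. Ezh2 is known as the catalytic subunit of dividing cells, whose gene is a target of E2F factors, and Ezh1 as the one retained in cells at rest.

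The libraries held 29041979 to 48808978 counted fragments. T-cell and naive T-cell markers were high and Th17 markers low: all 10 T-cell and all 8 naive T-cell genes were at or above 1 TPM (a length-corrected share of all transcripts) throughout, with list medians of 724 and 704 TPM, against 3 of 10 Th17 genes and a list median of 0.588 TPM. These 3 Th17 genes were Il17f at 9.83, Il17a at 4.22 and Rora at 2.47 TPM on average. Il17f and Il17a were highest in replicate 1, at 14.4 and 6.36 TPM. The summed level per library was 2.57 to 3.80 TPM for 8 B-cell markers and 10.8 to 16.5 TPM for 9 myeloid markers. Of the myeloid markers, Cd68 was 11.1 and Itgam 1.61 TPM on average, and the rest averaged at most 0.285 TPM. The sum was 39.3 to 46.3 TPM for 6 NK or CD8 markers (of which Cd8b1 was 42.9 and Cd8a 0.150 TPM on average). It was 2.56 to 3.44 TPM for 8 stromal or epithelial markers and at most 0.0916 TPM for 6 erythroid or platelet markers. Replicate 4 stood apart by heat shock genes (10 of 10 highest there) and replicate 3 by interferon-response genes (12 of 12 lowest there). At the other end, 10 of 10 heat shock genes were lowest in replicate 1, and 10 of 12 interferon-response genes were highest in replicate 2. Xist, expressed from an inactive X chromosome, was at 224, 215, 0.294 and 0.445 TPM in replicates 1 to 4. The Y-linked gene Kdm5d was at 0.0475, 0.0266, 23.9 and 25.5 TPM. Y-linked Ddx3y was at 0.439, 0.658, 97.2 and 139 TPM, and Eif2s3y at 0.289, 0.194, 96.9 and 81.9 TPM. Replicates 1 and 2 thus had the transcript pattern of female cells, and replicates 3 and 4 that of male cells. The labels nevertheless give all 4 libraries the same donor record. None of the 10 genes lies on a sex chromosome, and their values are given for each library.

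All 10 genes were measured at 1 TPM or more in every library, against 45.6% of the 21751 nuclear protein-coding genes, and 9 of the 10 at 5 TPM or more, against 39.9%. Their median level was 58.5 TPM, against 0.355 TPM over those protein-coding genes. In bulk RNA, fewer cells of a type and less RNA per cell cannot be told apart.

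**Figure D1:**
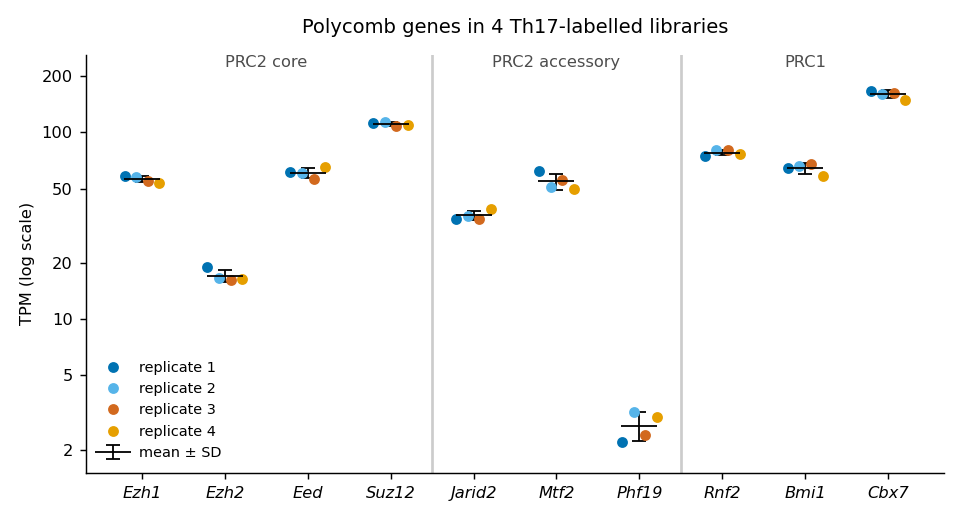
TPM (log scale) of the 10 Polycomb genes, grouped by complex, with 1 coloured point per library and a black bar for the mean ± SD (n = 4). Cbx7 is the highest at 160.1 TPM and Phf19 the lowest at 2.69 TPM, and in each of the 4 libraries Ezh1 lies above Ezh2.

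The first comparison was between the catalytic subunits of PRC2, the methyltransferases encoded by Ezh1 and Ezh2. Ezh1 (ENSMUSG00000006920, mm10 chromosome 11, 101191115 to 101226463, minus strand) had 58.6, 57.7, 55.0 and 53.7 TPM in replicates 1 to 4. Ezh2 (ENSMUSG00000029687, chromosome 6, 47530139 to 47595341, minus strand) had 18.9, 16.7, 16.3 and 16.3 TPM. Ezh1 was the higher in every library, and the lowest Ezh1 value lay well above the highest Ezh2 value. The Ezh1 to Ezh2 ratio was 3.10, 3.46, 3.38 and 3.30 in replicates 1 to 4, with 95% counting intervals (exact binomial) of 2.90 to 3.33, 3.24 to 3.70, 3.19 to 3.58 and 3.11 to 3.50. These intervals cover counting error only. The ratio was lowest in replicate 1, where Ezh2 was highest, and its interval there overlapped those of the other 3 libraries.

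The mean ratio was 3.31 ± 0.154 (SD, n = 4), a log2 ratio of 1.72 ± 0.07. Ezh1 held 76.8% ± 0.843 of the summed TPM of both genes, which was 73.3 ± 3.37 TPM. The two-sided exact test by flipping signs gave the smallest p that 4 libraries allow (p = 0.12, adjusted p = 0.12 over 6 pairs), so no pair of genes could pass a threshold of 0.05. The size of the ratio rests on the length used. The annotated exons merge to 7440 bases for Ezh1 and 6678 bases for Ezh2, while the main (APPRIS principal) transcripts are 4193 and 2787 bases long. With the principal lengths, a choice made after seeing the data, the ratio was 2.45 ± 0.114, from mean levels of 68.6 TPM for Ezh1 and 28.0 TPM for Ezh2, and the raw count ratio was 3.69 ± 0.171. Ezh1 exceeded Ezh2 in 4 of 4 libraries under each of the 3 measures.

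**Figure D2:**
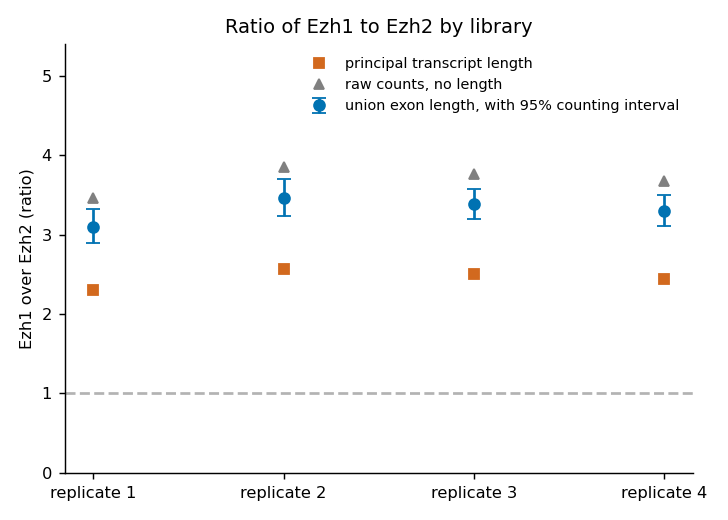
Ratio of Ezh1 to Ezh2 in each library by union exon length (circles, with 95% counting intervals), by principal transcript length (squares) and from raw counts (triangles); the dashed line marks equal levels. Circles lie between 3.10 and 3.46 and squares between 2.30 and 2.56, all above 1.

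The 250 bases before the RefSeq start sites of both genes are shown because their transcript levels are the pair compared, and because Ezh2 is a known E2F target. They are from RefSeq on GRCm38.p6 (the mm10 assembly), read 5′ to 3′ on the minus strand. Capitals mark CCAAT on either strand, the box bound by the factor NFY. The RefSeq start of Ezh2 lies inside the gene span of the annotation used for the counts, which starts further upstream.
Ezh1, chr11:101226464-101226713: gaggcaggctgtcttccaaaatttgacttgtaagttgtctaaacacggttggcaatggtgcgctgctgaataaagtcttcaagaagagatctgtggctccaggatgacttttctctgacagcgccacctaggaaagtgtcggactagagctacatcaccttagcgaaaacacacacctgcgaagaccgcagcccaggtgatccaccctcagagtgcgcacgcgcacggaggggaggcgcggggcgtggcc
Ezh2, chr6:47595031-47595280: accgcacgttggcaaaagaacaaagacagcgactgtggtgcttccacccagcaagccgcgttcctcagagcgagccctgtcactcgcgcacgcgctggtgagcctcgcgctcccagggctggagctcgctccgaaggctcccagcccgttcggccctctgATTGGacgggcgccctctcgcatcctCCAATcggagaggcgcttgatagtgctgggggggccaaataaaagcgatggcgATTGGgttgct
The Ezh2 stretch held 3 CCAAT boxes and 23 CpG dinucleotides, and the Ezh1 stretch held 0 and 14. Windows of 300 bases (250 before to 50 after the start) were found for all 10 genes, 12 windows in all. Like that of Ezh2, the windows of Cbx7 and Jarid2 and the downstream window of Mtf2 lie wholly inside the counted gene spans. Which start the counted transcripts used was not tested. The median of the 12 windows was 27 CpG dinucleotides, against 14 over 20095 windows of protein-coding genes. Of the 12, 7 held CCAAT, against 37.8% of all windows. An E2F-type motif (TTTGGCGC, TTTCCCGC, TTTCGCGC or TTTGCCGC, on either strand) was in 3 of the 12 windows, those of Ezh2, Phf19 and Suz12, against 2.87% of all windows. These motifs hold CpG, in which the 12 windows were richer, and no comparison with windows of like CpG content was made. Of the other motifs searched on both strands, the SP1-type GGGCGG was in 8 windows (47.8% of all windows) and the E-box CACGTG in 1 (8.03%). The ETS-type CCGGAAG was in 0 (11.9%), as was the CRE TGACGTCA (2.32%). The E2F-type motif is in capitals in these stretches of 28 bases, each on its gene's own strand.
Ezh2, chr6:47595010-47595037: ggttgctgcgTTTGGCGCtcggtccggt
Phf19, chr2:34914167-34914194: tcaataattcGCGGGAAAacgcgaaaaa
Suz12, chr11:79992877-79992904: gacccctcatTTTCCCGCgaattcagtt
The Ezh2 match lies after the RefSeq start site, and those of Phf19 and Suz12 lie before theirs. Neither of the 250-base stretches printed for Ezh1 and Ezh2 held this motif. Of the 3 genes with this motif, Suz12 was the second highest and Phf19 the lowest of the 10 in level. Such matches describe letters in a window, and nothing in these data measures binding there.

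Eed and Suz12 encode the other core subunits: Eed binds trimethylated lysine 27 and stimulates the enzyme, and Suz12 is the scaffold. Eed (ENSMUSG00000030619, chromosome 7, 89954654 to 89980983, minus strand) had 61.3, 60.6, 56.2 and 65.1 TPM in replicates 1 to 4. Suz12 (ENSMUSG00000017548, chromosome 11, 79993106 to 80034123, plus strand) had 111.9, 113.5, 108.4 and 109.7 TPM. Suz12 was the higher in every library and had the smallest spread of the 10 genes, a coefficient of variation (CV) of 2.04%. The Eed over Suz12 log2 ratio was -0.87 ± 0.08 in 4 of 4 libraries, but only -0.16 with principal transcript lengths. The histone-binding subunit genes Rbbp4 and Rbbp7 were at 86.9 ± 2.12 and 159 ± 6.31 TPM, so all 6 core genes were at 17.0 TPM or more on average.

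The accessory genes of PRC2 differed more in level. Jarid2, a cofactor that guides PRC2 to chromatin carrying ubiquitinated H2A (ENSMUSG00000038518, chromosome 13, 44729474 to 44921643, plus strand), had 34.5, 35.5, 34.5 and 39.0 TPM. Aebp2, its partner in the same form of PRC2, was at 56.9 ± 4.36 TPM (103 with principal transcript lengths), which put Jarid2 over Aebp2 at a log2 ratio of -0.66 ± 0.07 in 4 of 4 libraries (-1.37 with principal transcript lengths). Mtf2 and Phf19 belong to the Polycomb-like (PCL) family, which helps PRC2 bind CpG-rich DNA. Mtf2 (ENSMUSG00000029267, chromosome 5, 108065674 to 108109004, plus strand) had 61.9, 51.0, 55.8 and 49.9 TPM. Phf19 (ENSMUSG00000026873, chromosome 2, 34893757 to 34914026, minus strand) had 2.19, 3.18, 2.39 and 2.99 TPM from 92, 159, 171 and 195 counts. Mtf2 exceeded Phf19 in every library with no overlap, by a log2 ratio of 4.31 ± 0.38. The third PCL gene, Phf1, was at 399 ± 12.2 TPM, and the PCL transcripts were 87.4% ± 1.26 Phf1, 0.588% ± 0.0948 Phf19 and, over the 4 libraries, 10.7% to 13.6% Mtf2. Epop and Lcor, for other PRC2 cofactors, were at 16.4 ± 1.90 and 15.0 ± 1.43 TPM.

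Among the PRC1 genes, Rnf2 encodes RING1B, the ubiquitin ligase subunit (ENSMUSG00000026484, chromosome 1, 151458004 to 151500955, minus strand). It had 74.9, 80.2, 80.1 and 76.3 TPM, above its paralogue Ring1 at 44.2 ± 3.51 TPM in 4 of 4 libraries. The log2 ratio of Rnf2 over Ring1 was 0.82 ± 0.13. Bmi1 (PCGF4) is the partner of the ligase in canonical PRC1 and is known for silencing the Cdkn2a locus (ENSMUSG00000026739, chromosome 2, 18677018 to 18686629, plus strand). It had 64.6, 66.3, 67.9 and 58.4 TPM, against 1.61 ± 0.251 TPM for Pcgf2, the paralogue that can take its place, a log2 ratio of 5.24 ± 0.30 in 4 of 4 libraries. Over the 6 PCGF genes, which set the form of PRC1, Bmi1 held 30.3% ± 1.10 of the TPM. It was close to Pcgf5 at 27.6% ± 0.813, and above Pcgf6 at 19.2% to 20.5% and Pcgf1 at 14.7% ± 0.418. With principal transcript lengths the shares were 28.7% for Bmi1, 23.7% for Pcgf5, 22.6% for Pcgf1 and 17.1% for Pcgf6, so Pcgf1 passed Pcgf6.

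Cbx7, whose chromodomain reads trimethylated lysine 27 for canonical PRC1 (ENSMUSG00000053411, chromosome 15, 79915807 to 79971119, minus strand), had 166.8, 161.2, 162.9 and 149.6 TPM. It was the highest of the 10 genes in each library, at percentile 95.5 of nuclear protein-coding genes by mean level. The CBX genes Cbx6, Cbx8 and Cbx2 were at 34.6 ± 2.26, 18.6 ± 1.45 and 16.0 ± 0.329 TPM.

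**Figure D3:**
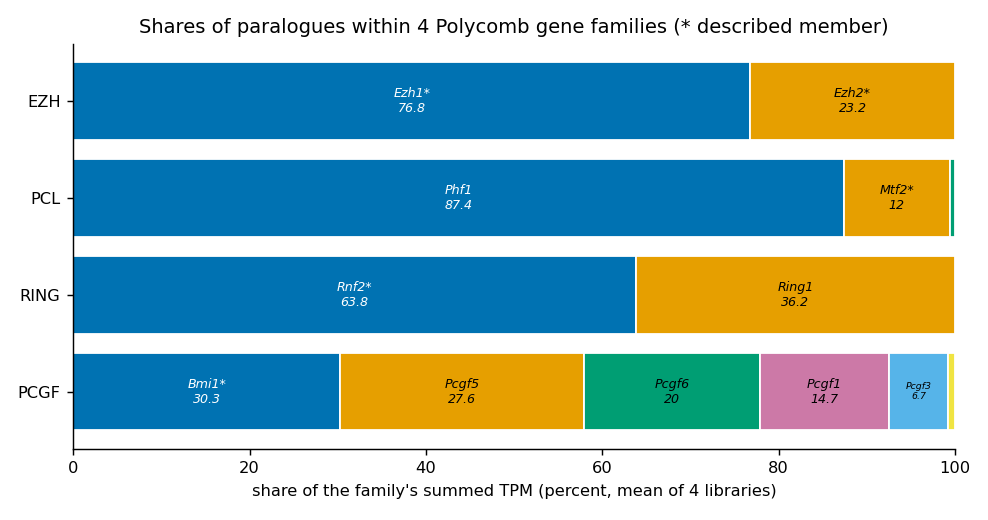
Share (percent) of each family's summed TPM by paralogue, mean of 4 libraries, for the EZH, PCL, RING and PCGF genes; an asterisk marks the genes described here, and segments too narrow for a label are Phf19 at 0.588% and Pcgf2 at 0.764%. Ezh1, Rnf2 and Bmi1 are the largest segments of their families, whereas Phf1 at 87.4% outweighs Mtf2 and Phf19.

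Ordered by mean TPM, the genes ran from Cbx7 through Suz12, Rnf2, Bmi1, Eed, Ezh1, Mtf2, Jarid2 and Ezh2 to Phf19. Neighbours were called separate where the within-library ratio had 1 sign in all 4 libraries and its mean exceeded its SD. Of the 9 neighbouring pairs 6 were separate, and the exceptions were the run of Bmi1, Eed, Ezh1 and Mtf2, at 64.3, 60.8, 56.2 and 54.6 TPM on average, whose ranges overlapped. With principal transcript lengths Bmi1 came below Mtf2 and Eed above Rnf2, while Cbx7 and Suz12 remained the highest and Jarid2, Ezh2 and Phf19 the lowest. Nearest to Ezh1 in level over the 4 libraries were Abca3 at 55.4 ± 2.64 and Clcn7 at 55.8 ± 3.00 TPM, which differed from it by a root mean square of 0.02 in log2(TPM + 0.1). Nearest to Ezh2 were Hspb11 at 17.2 ± 1.31 and Mul1 at 16.8 ± 1.07 TPM, at 0.02 and 0.03.

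The second comparison was between the 4 libraries. The CVs of the 10 genes ran from 2.04% for Suz12 to 17.6% for Phf19, with a median of 5.96%. The median was 6.66% over 9926 protein-coding genes at 1 TPM or more in every library, which were not matched to the 10 in level. Phf19, with the fewest counts, ranged 1.45-fold from lowest to highest library, and the next widest was Mtf2, at 1.24-fold. By edgeR's quasi-likelihood dispersion test 0 of the 10 genes varied more than the trend for their abundance, against 24 of 12464 genes or 0.193%. A count of 0 in 10 genes is near that share and does not set them apart from other genes. Their dispersion ran from 0.0225 times the trend for Suz12 to 2.97 times the trend for Mtf2. Over all genes that count of 24 became 86 of 12472 without replicate 4, 7 of 12449 without replicate 3 and 13 of 12773 without replicate 2. In each of these settings 0 of the 10 were called. The smallest adjusted p of the 10 was 0.966, for Mtf2, and 0 of the 10 had an unadjusted p below 0.05, against 665 of 12464 genes. DESeq2 also gave 0 of the 10 as dispersion outliers, against 108 of 12464 genes in all.

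Averaged over the 10 genes, each library's log2 distance from the mean of all 4 was 0.01, 0.03, -0.03 and -0.01 in replicates 1 to 4. The 10 heat shock genes in the same libraries deviated by -0.54, 0.01, -0.32 and 0.85, and the 12 interferon-response genes by 0.21, 0.43, -0.66 and 0.01. The 12 proliferation genes deviated by -0.003, 0.17, -0.24 and 0.08. The 10 Polycomb genes showed no joint shift as large as these lists at their extremes. Replicates 3 and 4 were set apart by those same heat shock and interferon-response lists. A smaller shift of the 10 genes is therefore no finding about them.

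**Figure D4:**
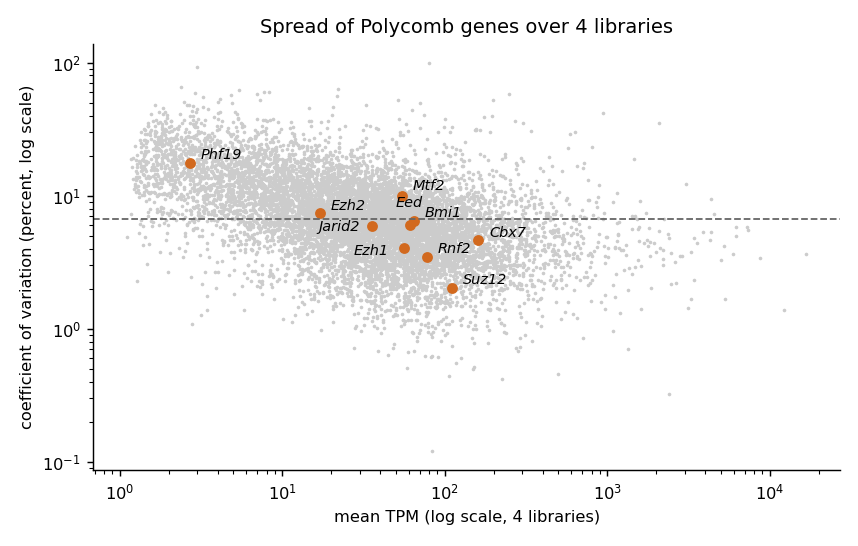
Coefficient of variation over 4 libraries (percent, log scale) against mean TPM (log scale) for protein-coding genes at 1 TPM or more in every library (grey) and the 10 Polycomb genes (orange); the dashed line is the grey median of 6.66%. Phf19, Mtf2 and Ezh2 lie above the line and the other 7 genes below it.

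The other genes of the Polycomb system were also largely present. Of 52 further genes of PRC2, PRC1, the PR-DUB complex (which removes ubiquitin from H2A) and the lysine 27 demethylases, 49 reached 1 TPM in every library, against 45.6% of protein-coding genes, with a median of 43.3 TPM. The exceptions were Scml2 at 0.287 ± 0.118, Auts2 at 0.259 ± 0.107 and the PR-DUB gene Asxl3, which had 0 counts in every library, allowing up to 0.0232 TPM at 3 counts per library. Scml4, for an SCM family protein, was at 162 ± 12.3 TPM, and the polyhomeotic genes Phc2, Phc3 and Phc1 were at 52.6 ± 2.51, 50.3 ± 2.48 and 24.4 ± 1.98 TPM. The variant PRC1 genes ran up to 208 ± 12.4 TPM for Skp1a, with Bcor at 81.0 ± 2.39, Rybp at 17.7 ± 1.39 and Kdm2b at 12.9 ± 0.366 TPM. Of the PR-DUB genes, Ogt was the highest at 265 TPM, the enzyme gene Bap1 was at 78.6 ± 0.863 TPM and its partners Asxl1 and Asxl2 at 90.0 ± 3.35 and 34.9 ± 0.723 TPM. With principal transcript lengths the last pair reversed, Asxl1 at 65.9 and Asxl2 at 85.8 TPM, and Auts2 was at 0.757 TPM. The demethylase gene Kdm6b was at 93.7 ± 5.16 TPM.

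Genes that Polycomb complexes are known to silence in many cell types were also measured. Of 38 Hox genes, 27 had 0 counts in every library, against 36% of protein-coding genes, 1 (Hoxa7) was at 1 TPM or more throughout, and the 38 together held 550 counts. Hoxa7 had 2.09, 1.30, 1.61 and 1.78 TPM, Hoxb4 had 0.889, 1.22, 0.877 and 1.27 TPM, and Hoxa6 and Hoxa5 averaged 0.929 and 0.928 TPM. Hoxa2 to Hoxa7 had counts in all 4 libraries, whereas Hoxa9, Hoxa10, Hoxa11 and Hoxa13 had 0 counts. Of 38 developmental transcription factor genes 33 had 0 counts, against the same 36%, and the highest, Neurog2, averaged 0.0261 TPM.

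Cdkn2a, which encodes the cell cycle inhibitors p16INK4a and p19ARF, had 0 counts in every library, which allows up to 0.307 TPM. Cdkn2b beside it had 1 count, while Cdkn1c was at 1.84 ± 0.834 and Cdkn1a at 1.23 ± 0.415 TPM. Of 8 helper cell genes listed as Polycomb targets, 3 reached 1 TPM in every library, a share near the 45.6% of all protein-coding genes. They were Gata3 at 48.1 ± 4.37, Il17a at 4.22 ± 1.53 and Eomes at 3.07 ± 0.792 TPM. The 12 proliferation genes had a median of 0.853 TPM, with Top2a the highest at 3.65 ± 0.239 and Plk1 next at 3.09 ± 0.538 TPM. With no sample in which these genes or the Polycomb genes were altered, how these levels relate to Polycomb activity was not tested.

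**Figure D5:**
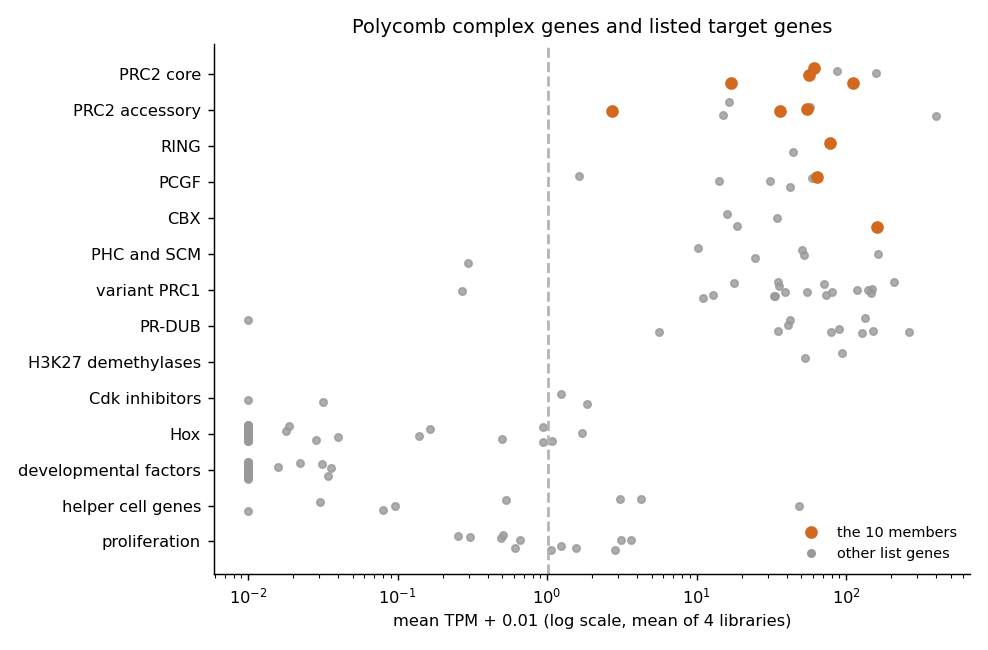
Mean TPM + 0.01 (log scale, mean of 4 libraries) of every listed gene by group, with the 10 described genes in orange and the dashed line at 1 TPM; points at the left edge are genes with 0 counts. Complex genes reach up to 399 TPM (Phf1) and lie mostly right of the line, whereas 27 of 38 Hox and 33 of 38 developmental factor genes lie at the left edge and a few Hox genes lie near or right of the line.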

How the data were processed

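Each library has its own table of unnormalized gene counts, made by the authors. Per the file headers, featureCounts 1.4.6-p4 counted read pairs with both ends mapped over exons (GENCODE M13, mm10), reverse-stranded. Fragments that overlap several genes or map to several places were not counted, as the headers show no option for them. The alignment names hold the tag star2, and no aligner version is given in the sources. Gene IDs, versions removed, were named through GENCODE M21, matching 50376 of 50600 IDs, and the other 224 stayed in the totals. Ezhip, on the PRC2 list, was not matched and is not analysed here.

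TPM was computed from those deposited counts, each divided by its table's merged exon length. None of the 10 genes shares exon bases with another gene on its strand. A count of 0 was taken to allow up to 3 counts, and such limits cover counting error only. Gene ratios used log2(TPM + 0.1) within a library. Spread was tested with edgeR 4.0.16 in R 4.3.3 (TMM, filterByExpr, intercept only, robust prior) as a one-sided F test of each gene's quasi-dispersion against the prior trend, Benjamini-Hochberg adjusted over 12464 genes. DESeq2 1.42.0 gave an alternative. The test was tested on simulated data. Python 3.11.15, numpy 2.4.6, pandas 2.3.3 and scipy 1.17.1 did the rest. Promoter windows are those of RefSeq (GRCm38.p6).

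The labels give each library its own biosample record but 1 donor record, and do not name separate animals or cultures. The p-values of the dispersion test therefore measure only the spread between these libraries. That spread, the SDs and the CVs include any difference between replicates 1 and 2 and replicates 3 and 4, which was not tested. The sign-flip p was the smallest possible for all 6 pairs, each of 1 sign in all 4 libraries, and does not measure spread. The named genes were the 10 members, their pair partners, the complex lists led by their highest and lowest genes, the Cdk inhibitor genes, the 4 highest Hox and developmental genes and the 2 genes nearest in level to Ezh1 and to Ezh2. Other genes named, such as Kdm5d, Xist, Uty, Cd8a and the Hoxa genes at 0 counts, were chosen after their values were seen. The members and lists were chosen with earlier results of these data known. Text listings of files were not used, and some planned results are not reported here.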

Additional observations from a re-analysis of the deposited data

Results flagged for a closer look

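Of 27 values over the 4 libraries (levels, ratios and family shares), 2 had 1 library whose gap to the nearest other was a larger part of the range than the 95% limit of Dixon's test. Chance gives about 1 in 20. Replicate 1 had 18.9 TPM of Ezh2, while the other libraries had 16.3 to 16.7 TPM (gap 0.843 of the range). Jarid2 over Aebp2 was at a log2 ratio of -0.77 in replicate 2 and at -0.64 to -0.62 in the others (gap 0.838 of the range).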

How the results depend on the processing

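The Ezh1 over Ezh2 log2 ratio kept its sign under every alternative tried, from 1.29 with principal transcript lengths (chosen after seeing the data) to 1.88 from raw counts, and from 1.70 to 1.75 with 1 library left out. It was 1.67 with a pseudocount of 1. All 6 pairs had 1 sign in every library under the length, pseudocount and left-out-library settings. Leaving a library out could not change this, as each pair had 1 sign in all libraries. Nor could removing shared exon bases, as the paired genes have none. With principal transcript lengths the family shares were 71.0% for Ezh1, 16.0% for Mtf2, 0.754% for Phf19, 58.8% for Rnf2 and 28.7% for Bmi1. Those lengths moved the median of 9926 genes at 1 TPM or more by -0.18 on the log2 scale. The count of all genes with excess spread was 349 with no filter, 10 with genes limited to a mean CPM of at least 5, 5 without the robust prior, 108 as DESeq2 dispersion outliers and 7 to 86 with 1 library left out (86 without replicate 4, 7 without replicate 3, 13 without replicate 2); the cause was not tested. The 10 genes gave 0 calls under each of these settings, as did most genes tested, and 9 of the 10 passed the CPM filter. Of the 52 other complex genes, 48 reached 5 TPM. Phf19 rests on 617 counts in all, the fewest of the 10 genes, so its differences between libraries carry the widest counting error. No paired analysis was possible because the libraries form 1 group.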

Other observations

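Kdm6a, the X-linked gene of a histone H3 lysine 27 demethylase, differed more between libraries than any of the 10 Polycomb genes in CV. Its CV was 30.2%, with 66.5, 66.9, 38.5 and 39.5 TPM in replicates 1 to 4. The excess spread missed the threshold by edgeR's quasi-likelihood test (adjusted p = 0.0667). Its Y-linked homologue Uty was at 0.0368, 0.0308, 15.0 and 16.0 TPM in the same libraries. Kdm6a was thus higher in both libraries with high Xist, and Uty in both libraries with low Xist.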
